A study of Mus musculus with 4 samples.

Results

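The colony-stimulating factors Csf1 and Il34, the receptors Csf1r, Csf3r, Csf2ra and Csf2rb, and the myeloid regulators Spi1, Runx1 and Irf8 were followed through single-nucleus RNA sequencing (snRNA-seq) of mouse thalamus. The genes were taken by symbol, and all 9 were present in each library, among 40091 genes in all. The animals were wild-type C57BL6 adults aged 7 to 8 weeks. In the COL group, Coll IV (collagenase, 0.01 U in 10 nl) was given into VPM and VPL on the right side, the sensory relay nuclei of the thalamus, where it causes a small haemorrhage. The NS group received saline at the same place, so both groups carried the injection itself. Thalamus was taken 7 days later, and nuclei from 3 mice were pooled for each library, with 2 libraries per group. No animal could be followed within a library, so n is 2 pools and the spread between pools is the only replicate error.

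CSF1 and interleukin 34, the product of Il34, are the ligands of the tyrosine kinase receptor CSF1R, on which microglia and many tissue macrophages depend for survival and division. CSF3R is the receptor for granulocyte colony-stimulating factor, and CSF2RA with CSF2RB forms the receptor for GM-CSF, CSF2RB also serving interleukins 3 and 5. PU.1 (encoded by Spi1), RUNX1 and IRF8 are transcription factors of the myeloid lineage: PU.1 drives Csf1r transcription, IRF8 partners PU.1 on DNA, and RUNX1 acts from early blood formation onwards.

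After filtering, 32291 nuclei remained, between 5931 and 10422 per library, with 68723738 to 77546840 unique molecular identifiers (UMIs, counted RNA molecules) per library. The median nucleus held 6489 and 4649 UMIs in the NS libraries against 8664 and 8691 in the COL libraries, so levels are given relative to all UMIs of the cell type (CPM) unless stated. Clusters were named from marker genes, by naming rules written after the clusters had been seen, as microglia-like, macrophage-like, T and NK cell-like, vascular, astrocyte-like, OPC-like (oligodendrocyte precursors), oligodendrocyte-like and neuron-like, called below by the short names. Microglia made up 3.32% and 3.30% of NS nuclei and 6.29% and 8.79% of COL nuclei, and macrophages 0.0103% and 0.0384% against 5.33% and 7.52%. With 2 libraries per group the exact permutation test cannot go below p = 0.333, the value both differences reached. NS and COL nuclei of most types lay in different clusters: microglia of NS were nearly all in cluster 12, those of COL in clusters 10 and 23, the second of which was led by Top2a and Mki67, genes of dividing cells. The 7 microglial markers all had UMIs in microglia, where their summed level was 4322 and 4090 CPM in NS and 1974 and 1793 CPM in COL. The macrophage markers stood at 8.08 and 71.0 CPM against 166 and 190 CPM in the same nuclei. Between 8 and 31 barcodes were shared by any pair of libraries.

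The DNA just upstream of a gene's start is where PU.1 and its partners would bind, and such windows are shown for the members with an entry whose window overlapped no annotated exon, namely Csf1, Irf8 and Runx1, a ligand and 2 regulators of the set. For Irf8 the window of the upstream start is shown. Its other window, chr8:120738389-120738638, also overlapped no exon and is not printed. RefSeq entries were matched for 5 of the 9 members, Csf1, Csf2ra, Csf3r, Irf8 and Runx1, in build GRCm38.p6. Each window is the 250 bases before a start, 5′ to 3′ on the gene's strand, and capitals mark the core bound by PU.1, GAGGAA or its other-strand form TTCCTC.
Csf1, chr3:107760470-107760719, minus strand: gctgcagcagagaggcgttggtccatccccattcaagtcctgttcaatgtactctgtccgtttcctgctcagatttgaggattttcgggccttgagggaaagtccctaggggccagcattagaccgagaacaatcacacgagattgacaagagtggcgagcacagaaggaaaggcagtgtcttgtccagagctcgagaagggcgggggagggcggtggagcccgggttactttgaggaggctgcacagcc
Irf8, chr8:120736108-120736357, plus strand: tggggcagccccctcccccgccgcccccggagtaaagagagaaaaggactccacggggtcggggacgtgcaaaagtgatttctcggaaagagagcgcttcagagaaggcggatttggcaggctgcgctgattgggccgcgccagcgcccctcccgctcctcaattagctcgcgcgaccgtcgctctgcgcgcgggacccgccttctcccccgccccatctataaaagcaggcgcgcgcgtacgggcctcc
Runx1, the proximal of its starts, chr16:92697330-92697579, minus strand: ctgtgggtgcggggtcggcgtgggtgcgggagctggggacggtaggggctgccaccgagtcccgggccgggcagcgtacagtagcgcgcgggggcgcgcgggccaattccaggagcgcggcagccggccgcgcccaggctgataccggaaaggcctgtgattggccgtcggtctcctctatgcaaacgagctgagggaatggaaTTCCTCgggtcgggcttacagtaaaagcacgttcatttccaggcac
The Runx1 window held the core 46 bases before the start, on the strand opposite to GAGGAA, and the Csf1 and Irf8 windows held none. Over the 7 member windows, 3 held it, those of Csf3r, Csf2ra and Runx1, beside 7639 of 32851 promoters of the table (23.3%). The STAT motif TTCNNNGAA, which can overlap the core, was in 1 of the 7, a window of Irf8, and in 7.02% of all promoters. A match of letters is a description and not a binding site.

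In saline-injected thalamus, 7 of the 9 members stood highest in microglia among the 6 cell types that had 20 nuclei or more in all libraries. The exceptions were both ligands: Csf1 was highest in oligodendrocytes and Il34 in vascular cells. By the mean of normalised values per nucleus it was 6 in NS, Csf2ra then being highest in neurons, where a nucleus held 0.408 Csf2ra UMIs against 0.128 in microglia. The same 7 were highest in microglia among those types in COL, where macrophages, numerous only in that group, exceeded microglia for Csf2ra, Csf2rb and Spi1. The NS libraries held 1 and 4 macrophage nuclei, so no level is given for that type in NS.

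**Figure D1:**
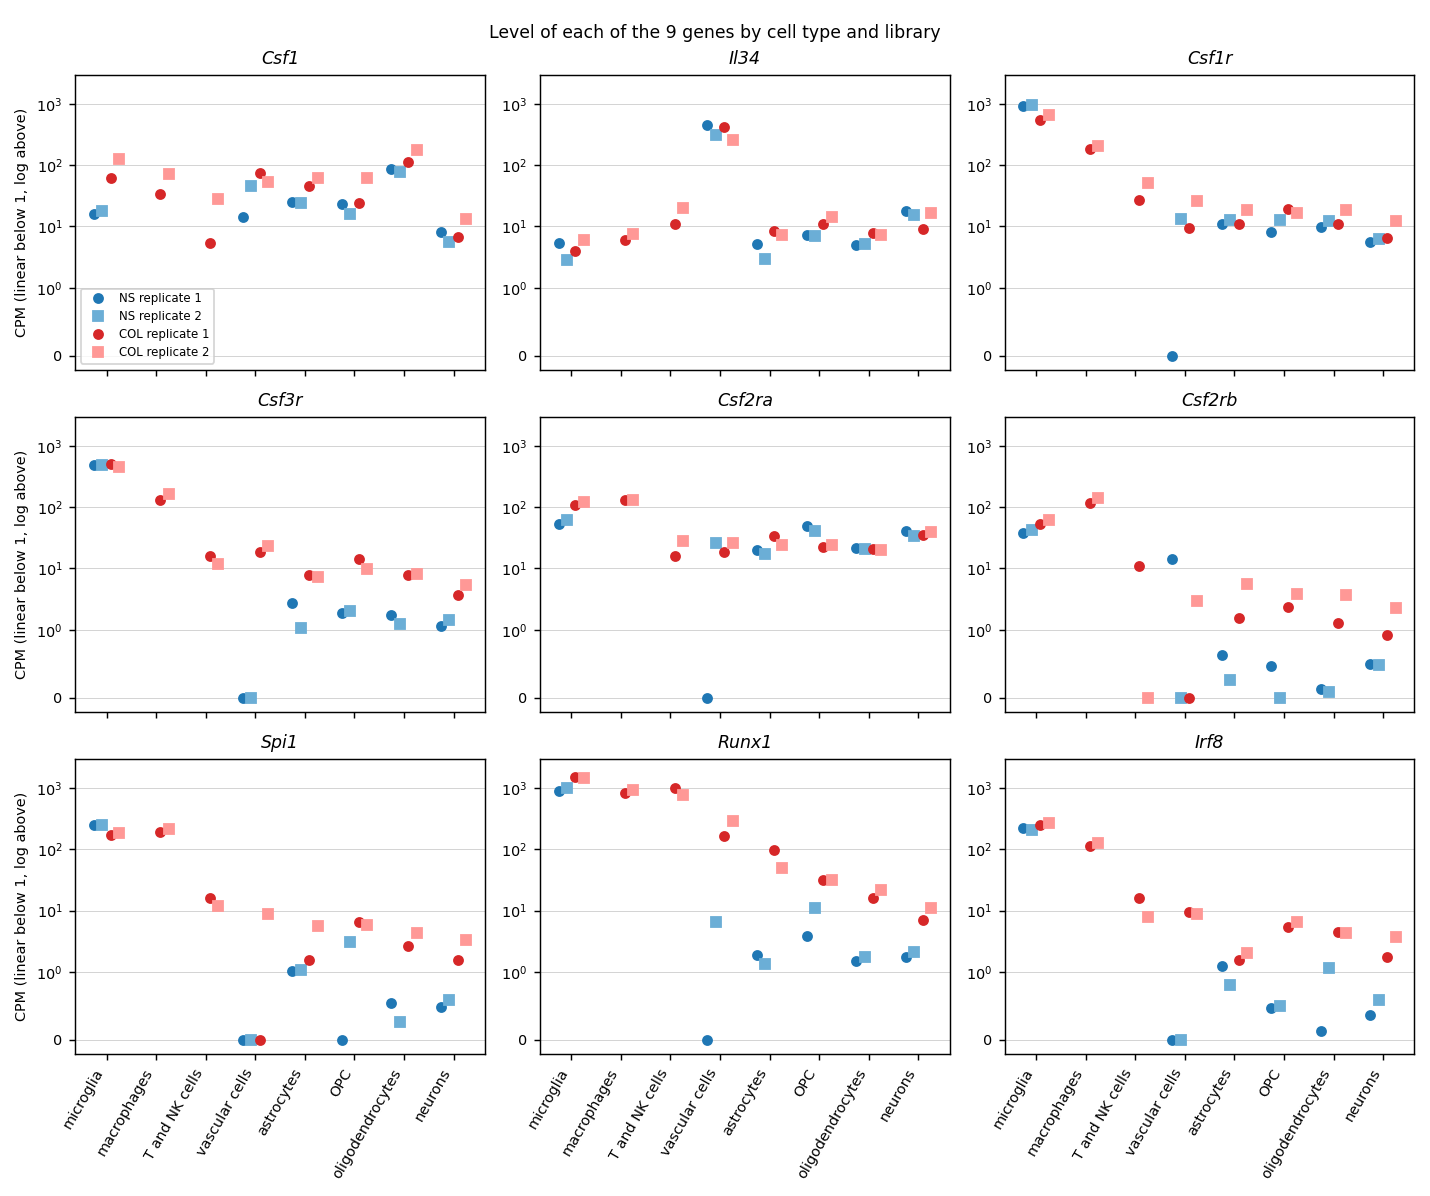
Level of each gene (CPM, linear below 1 and logarithmic above) by cell type, each point a library of 3 pooled mice, NS in blue and COL in red. Csf1r, Csf3r, Csf2rb, Spi1 and Irf8 are far lower outside microglia and macrophages, Csf2ra is spread over several types, Il34 stands out in vascular cells (256 to 452 CPM), and types without 20 nuclei in the NS libraries show COL points only.

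Csf1 (ENSMUSG00000014599, GRCm38 chromosome 3, 107741048 to 107760469, minus strand) was a gene of oligodendrocytes in NS thalamus and passed the test upwards in 4 glial types after Coll IV. In oligodendrocytes it stood at 85.5 and 76.9 CPM in NS and at 114 and 175 CPM in COL. The COL libraries lay above both NS libraries, and the log2 difference was 0.88 (SE 0.20, edgeR quasi-likelihood test, Benjamini-Hochberg adjusted p = 0.0201). Without NS replicate 1 or NS replicate 2 the adjusted p was 0.0526 or 0.0689. In microglia Csf1 stood at 16.2, 18.1, 61.5 and 127 CPM in NS replicate 1, NS replicate 2, COL replicate 1 and COL replicate 2, the order used below. That was the largest fitted rise of Csf1 among the types tested, 2.52 on the log2 scale (SE 0.38, adjusted p = 0.000475), and it passed the threshold under every alternative run. The COL libraries differed from each other by more than NS did, and both stood above the NS range. The NS values rested on 12 and 13 UMIs. In astrocytes the values were 24.7 and 23.7 against 45.0 and 61.2 CPM, a log2 difference of 1.17 (SE 0.22, adjusted p = 0.00736). In OPC they were 22.8 and 16.1 against 24.5 and 60.8 CPM, a log2 difference of 1.1996 (SE 0.34, adjusted p = 0.0249) that rested on COL replicate 2, without which it was 0.40 (adjusted p = 0.402). DESeq2 did not make that call either (adjusted p = 0.110). Neurons held 8.06, 5.54, 6.83 and 13.3 CPM, and there the groups overlapped. Summed oligodendrocyte markers stood at 2074 and 2632 CPM in NS microglia and 871 and 2149 CPM in COL microglia. In OPC they stood at 1919 and 2233 against 987 and 1794 CPM, and in astrocytes at 1324 and 1681 against 733 and 1605 CPM. Oligodendrocytes themselves held 8964 and 8306 CPM of them in NS and 6921 and 9228 CPM in COL. Free RNA of oligodendrocytes was not removed, and its part in these Csf1 values was not tested.

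In the order of types for Csf1, neighbours overlapped throughout in COL and only in part in NS. In NS, oligodendrocytes (81.2 ± 6.08 CPM, SD, n = 2) did not overlap vascular cells (29.9 ± 22.3 CPM), which came next and overlapped astrocytes (24.2 ± 0.724 CPM). Still in NS, astrocytes did not overlap OPC (19.5 ± 4.72 CPM), nor did microglia (17.1 ± 1.38 CPM) overlap neurons (6.80 ± 1.78 CPM). In COL, oligodendrocytes (144.7 ± 43.4 CPM) overlapped microglia (94.0 ± 46.0 CPM), and each neighbour down to neurons overlapped the next. Of all Csf1 UMIs of a library, oligodendrocytes held 44.8% and 62.4% in NS and 59.3% and 51.05% in COL. Microglia held 0.853% and 0.937% in NS against 5.88% and 10.4% in COL. Counted by nucleus, an oligodendrocyte held 0.297 and 0.246 Csf1 UMIs in NS and 0.663 and 1.14 in COL. After each nucleus was thinned to 1000 UMIs, 6.86% and 7.19% of NS oligodendrocytes and 9.96% and 14.5% of COL oligodendrocytes held a Csf1 UMI, beside 22.8%, 19.7%, 40.0% and 56.4% unthinned. In neurons, the type with the lowest level, the thinned shares were 0.798%, 0.529%, 0.581% and 1.15%.

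Il34 (ENSMUSG00000031750, chromosome 8, 110741829 to 110805924, minus strand), the other ligand, was by level a vascular gene and by number of molecules a neuronal one, and no difference between the groups passed in the types tested. It had too few UMIs for a test in microglia. At clustering resolution 0.4, where vascular cells formed no cluster of their own, it passed upwards in astrocytes (1.43, adjusted p = 0.0305). At the main resolution the astrocyte difference was 0.91 (SE 0.46, adjusted p = 0.208), on 36 UMIs in NS and 25 in COL. Vascular cells held 452 and 307 CPM in NS and 424 and 256 CPM in COL. The groups overlapped, and the log2 difference was -0.21 (SE 0.37, adjusted p = 0.855). With nuclei chosen by marker genes in place of clusters the vascular mean of Il34 was lower, 90.3 CPM in NS and 151 CPM in COL, and vascular cells were still the highest type. When vascular nuclei were split by marker genes, pericytes and smooth muscle held 612 and 531 CPM in NS and 460 and 511 CPM in COL, on 11 to 22 nuclei a library. Fibroblasts held 0, 357, 512 and 239 CPM on 2 to 16 nuclei, and endothelial cells 0, 0, 150.4 and 67.2 CPM on 4 to 10 nuclei. In the 4 and 9 NS endothelial nuclei Il34 was not detectable at this depth. Neurons came next at 17.7 and 15.2 CPM in NS and 9.23 and 16.7 CPM in COL, again overlapping (log2 difference -0.20, SE 0.24, adjusted p = 0.598). Neurons held 63.7% to 73.1% of all UMIs, and they carried 82.8% and 77.4% of Il34 UMIs in NS and 65.0% and 70.3% in COL, while vascular cells carried 2.66% and 5.23% against 12.6% and 8.38%. Among neurons, those led by the GABA marker list stood at 20.6, 19.7, 8.84 and 19.2 CPM in the same order of libraries. Those led by the glutamatergic list stood at 9.60, 8.003, 6.07 and 7.003 CPM, and those led by neither list at 22.3, 14.7, 16.2 and 20.0 CPM. The classes were filled unevenly: those led by the GABA list numbered 4102 and 3096 nuclei in NS against 364 and 395 in COL, and those led by neither list 83 and 145 against 982 and 1722. A list led by its score relative to the other clusters. Summed GABA markers stood at 268 and 170 CPM in NS neurons and 153 and 217 CPM in COL neurons. In microglia they stood at 253 and 164 CPM in NS and 74.1 and 98.1 CPM in COL. The class sizes are therefore not counts of GABA neurons. The antisense gene Gm15894 overlaps Il34 and the use of strand in counting is not given in the sources used here, so reads of the pair cannot be told apart.

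Csf1r (ENSMUSG00000024621), the receptor of both ligands, was far higher in myeloid nuclei than in the other types, and its share of microglial RNA fell after Coll IV. Microglia held 930.5 and 966 CPM in NS and 539 and 652 CPM in COL. The groups did not overlap, and Csf1r fell by 0.62 on the log2 scale (SE 0.15, adjusted p = 0.00738). The next type in NS was astrocytes at 11.1 and 12.7 CPM, far below either microglial value. Counted by nucleus, the direction was the other way: a microglial nucleus held 2.15 and 2.02 Csf1r UMIs in NS and 2.51 and 3.37 in COL, where its median total was 4056 and 4335 UMIs against 2230 and 1995 in NS. After thinning to 1000 UMIs, 60.8% and 61.1% of NS microglia and 36.9% and 46.1% of COL microglia held a Csf1r UMI, beside 86.9%, 83.1%, 83.6% and 91.7% unthinned. In neurons, where the gene should be absent, the thinned shares were 0.439%, 0.644%, 0.787% and 1.23% at median totals of 9107 to 15094 UMIs. Dividing COL microglia stood at 466 and 413 CPM, and the other COL microglia at 571 and 781 CPM. Without the dividing nuclei the difference was -0.42 (adjusted p = 0.0769), without NS replicate 1 it was -0.68 (0.0598) and without NS replicate 2 it was -0.54 (0.175). When microglia were chosen nucleus by nucleus from marker genes in place of clusters, it was -0.00 (adjusted p = 0.993), at mean Csf1r levels of 608 CPM in NS and 581 CPM in COL. The summed microglial markers fell with Csf1r, as given above, and their part in the result was not tested. COL macrophages held 182 and 206 CPM. The protein-coding gene Hmgxb3 overlaps Csf1r on the opposite strand, so reads of the pair could not be told apart without strand.

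Csf3r (ENSMUSG00000028859, chromosome 4, 126024550 to 126044440, plus strand) was also far higher in microglia than elsewhere, and there its groups overlapped. Microglia held 490 and 485 CPM in NS and 511 and 458 CPM in COL, overlapping, with a log2 difference of 0.04 (SE 0.15, adjusted p = 0.871). With microglia chosen by marker genes Csf3r passed upwards (0.66, adjusted p = 0.00930), at means of 310 CPM in NS and 469 CPM in COL. The dividing COL microglia stood lower, at 325 and 305 CPM, than the other COL microglia at 592 and 541 CPM. COL macrophages held 131 and 162 CPM. Their summed macrophage markers stood at 2725 and 2443 CPM, those of neutrophils at 41.9 and 45.1 CPM and those of dendritic cells at 75.7 and 139 CPM. The part of neutrophils and dendritic cells in the macrophage levels of the members was not tested. Outside myeloid cells Csf3r was at 1.08 to 2.72 CPM in astrocytes, OPC, oligodendrocytes and neurons of NS and at 3.74 to 14.4 CPM in those of COL.

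Csf2ra (ENSMUSG00000059326, chromosome 19, 61223957 to 61228429, minus strand), the ligand-binding chain of the GM-CSF receptor, was present in microglia, OPC and neurons, and it moved in opposite directions in microglia and OPC. Microglia held 53.9 and 62.7 CPM in NS and 110.3 and 121 CPM in COL. The COL values were all higher, with a log2 difference of 1.04 (SE 0.21, adjusted p = 0.00243) that passed the threshold under every alternative run. OPC held 49.4 and 41.3 CPM in NS and 22.7 and 23.9 CPM in COL. There Csf2ra fell by 0.93 on the log2 scale (SE 0.22, adjusted p = 0.0108), a call that DESeq2 did not make (adjusted p = 0.163) and that was also lost when NS replicate 1 was left out (adjusted p = 0.0913) or OPC were chosen by marker genes (-0.52, adjusted p = 0.0964). Neurons held 41.3, 33.5, 35.3 and 39.2 CPM, and with them 78.9%, 72.6%, 70.0% and 59.6% of the libraries' Csf2ra UMIs. COL macrophages, at 129 and 132 CPM, stood just above COL microglia without overlap.

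Csf2rb (ENSMUSG00000071713, chromosome 15, 78325752 to 78353847, plus strand), the signalling chain, was highest in COL macrophages at 118 and 140.4 CPM. Microglia held 37.7 and 41.8 CPM in NS and 52.3 and 61.0 CPM in COL. These groups did not overlap, but the log2 difference of 0.56 (SE 0.25) missed the threshold (adjusted p = 0.108). It passed with microglia chosen by marker genes (1.24, adjusted p = 0.00560), at means of 24.7 CPM in NS and 55.7 CPM in COL. Its neighbour Csf2rb2 is a near-identical copy, so reads could have been split or lost between them and the values of both genes are uncertain.

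Spi1 (ENSMUSG00000002111, chromosome 2, 91082390 to 91115756, plus strand), which encodes PU.1, was close to absent outside myeloid cells in NS. Microglia held 244 and 252 CPM in NS and 168 and 183 CPM in COL. The groups did not overlap and Spi1 fell by 0.45 on the log2 scale (SE 0.16, adjusted p = 0.0445). That call was near the threshold: DESeq2 gave an adjusted p of 0.285, it was lost without NS replicate 1, NS replicate 2 or COL replicate 1, with no filter on low counts (0.255), with doublets removed (0.0771), at resolution 0.4 (0.0606) and with members among the variable genes (0.0571), leaving out the dividing microglia gave -0.25 (adjusted p = 0.296), and choosing microglia by marker genes turned the sign (0.17, adjusted p = 0.450). As for Csf1r, the count per nucleus was higher in COL, 0.783 and 0.947 against 0.564 and 0.526 UMIs. COL macrophages stood at 191 and 215 CPM, above both COL microglial values.

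Irf8 (ENSMUSG00000041515, chromosome 8, 120736358 to 120756694, plus strand) differed least after Csf3r among the 8 members tested in microglia taken from clusters. The values were 224 and 205 CPM in NS and 251 and 270 CPM in COL. The groups did not overlap, and the log2 difference of 0.33 (SE 0.15) missed the threshold (adjusted p = 0.125). It passed without the dividing nuclei (0.48, adjusted p = 0.0460) and with microglia chosen by marker genes (0.88, adjusted p = 0.00277). By marker genes the means were 136 CPM in NS and 241 CPM in COL. COL macrophages held 111 and 124 CPM, below all 4 microglial values. Gm20388 overlaps Irf8 on the same strand, so that reads may have been shared.

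Runx1 (ENSMUSG00000022952, chromosome 16, 92601466 to 92826149, minus strand) rose in microglia and, by larger fitted factors, in other types. Microglia held 883 and 986 CPM in NS and 1504 and 1441 CPM in COL. The groups did not overlap, with a log2 difference of 0.70 (SE 0.15, adjusted p = 0.00333). Without NS replicate 1 the difference was 0.60 (adjusted p = 0.116), and without NS replicate 2 it was 0.84 (adjusted p = 0.0614). A microglial nucleus held 2.04 and 2.06 Runx1 UMIs in NS and 7.02 and 7.46 in COL. COL macrophages stood at 826 and 925 CPM and COL T and NK cells at 993 and 753 CPM, and these overlapped each other. The antisense gene Gm26626 overlaps Runx1 and its reads could not be told apart from those of Runx1 without strand.

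Runx1 also rose in astrocytes and in vascular cells, from a few UMIs in NS. Astrocytes held 9 and 5 Runx1 UMIs in NS and 126 and 97 in COL, or 1.89 and 1.35 against 97.8 and 49.4 CPM. The log2 difference was 5.44 (SE 0.42, adjusted p = 0.000168) and passed the threshold under every alternative run. NS astrocytes lay almost all in cluster 5 and COL astrocytes in cluster 17, and within cluster 17 the 44 and 31 NS nuclei held 3 and 0 Runx1 UMIs against 126 and 97 UMIs in 198 and 275 COL nuclei. Vascular cells held 0 and 1 Runx1 UMIs in NS and 35 and 99 in COL, a ratio of pooled levels of 53.8 whose exact 95% counting interval ran from 9.49 to 2140. The fitted log2 difference was 5.43 (SE 0.80, adjusted p = 0.0103), and it missed the threshold without NS replicate 1 (adjusted p = 0.121), without COL replicate 1 (adjusted p = 0.608) and without COL replicate 2 (adjusted p = 0.531). DESeq2 gave it no adjusted p. By marker gate, COL pericytes and smooth muscle held 267 and 118 CPM of Runx1, COL fibroblasts 115 and 495 CPM, and COL endothelial cells 25.1 and 0 CPM. The make-up of the vascular nuclei moved as well: summed fibroblast markers stood at 367 and 541 CPM in NS and 1394 and 1236 CPM in COL, those of dividing cells at 0 and 0 against 107 and 160.0 CPM, and those of pericytes and smooth muscle at 3178 and 1031 against 1030.2 and 989 CPM. Their part in the result was not tested.

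Over all nuclei of a library, 3 of the 4 receptors and the 3 regulators were higher in COL. In that comparison 9.45% of the 25570 genes tested passed the threshold, 5.02% upwards and 4.43% downwards, and 7 of the 9 members passed it, all upwards. The median log2 difference was 2.04 over the members and 0.02 over all genes. Runx1 stood at 12.6 and 14.4 CPM in NS and 71.5 and 116 CPM in COL (log2 difference 2.92, SE 0.22, adjusted p = 0.00222). Csf2rb had the largest difference, 3.12 (SE 0.35, adjusted p = 0.00676), from 1.03 and 0.873 CPM to 5.07 and 10.2 CPM. Irf8 rose by 2.49, Spi1 by 2.18, Csf3r by 2.04, Csf1r by 1.16 (adjusted p = 0.0438) and Csf1 by 1.11 (adjusted p = 0.0461). Csf1r and Spi1 were thus higher over all recovered nuclei and lower as a share of microglial UMIs. The calls of Csf1 and Csf1r were lost with plain library sizes (adjusted p = 0.0861 and 0.0801), without NS replicate 1 (0.0621 and 0.0553) and without dividing microglia (0.0519 and 0.0661), and that of Csf1 also with doublets removed (0.0516) and without mixed and unnamed clusters (0.0517). Csf2ra (0.35, adjusted p = 0.144) and Il34 (-0.03, adjusted p = 0.934) did not pass. The share of microglia and macrophages among nuclei moved with these levels, and more nuclei of a type cannot be told apart from more RNA per nucleus in such a sum.

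The types that carried each gene's UMIs also shifted. Macrophages supplied 49.4% and 46.5% of Csf2rb UMIs in the COL libraries, 38.3% and 37.3% of Spi1, 24.6% and 27.0% of Runx1 and 14.9% and 13.9% of Csf1r. Microglia held 51.5% and 51.1% of Csf1r UMIs in NS and 51.7% and 53.2% in COL, a nearly constant share. For Spi1 the microglial share was 67.5% and 69.9% in NS and 39.6% and 38.5% in COL.

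**Figure D2:**
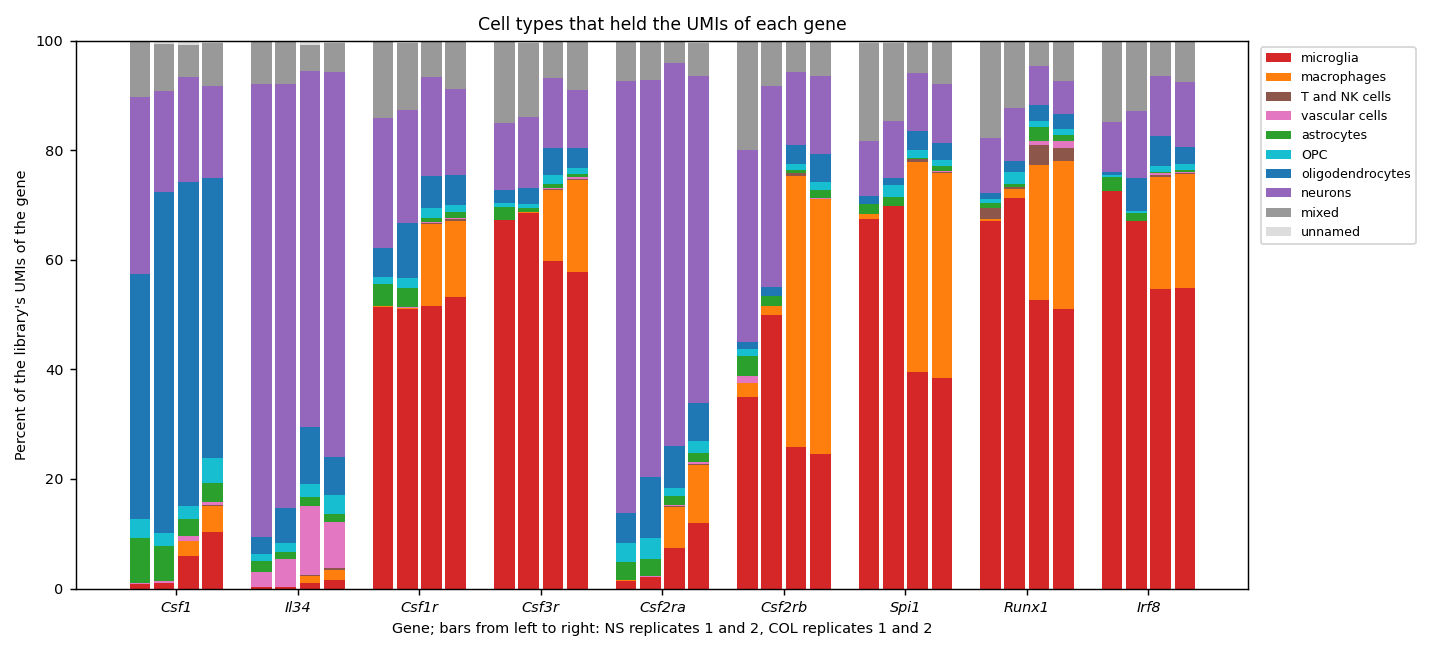
Share of each gene's UMIs (percent of a library's UMIs of that gene) by the cell type of the nucleus, with 4 bars a gene, the NS pools first and the COL pools after them. Oligodendrocytes held 44.8% to 62.4% of Csf1 UMIs, Il34 and Csf2ra UMIs came mostly from neurons, and in COL macrophages added to microglia for the other genes.

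Within single types, each compared by the same test on UMIs summed per library, the members did not move alike. In microglia 28.7% of the 12123 genes tested passed the threshold, 14.3% upwards and 14.4% downwards, and of the 8 members tested 3 passed upwards (Csf1, Csf2ra, Runx1) and 2 downwards (Csf1r, Spi1). When microglia were chosen nucleus by nucleus from marker genes, 6 passed upwards (Csf1, Runx1, Csf3r, Irf8, Csf2ra, Csf2rb) and 0 downwards, beside 10.7% and 9.87% of all genes in that fit. The split between higher and lower members thus turned on how microglia were chosen. The marker genes took 396 and 413 NS nuclei as microglia, against 321 and 344 by cluster. Mean NS levels were lower under that choice, 310 against 487 CPM for Csf3r, 136 against 214 CPM for Irf8 and 153 against 248 CPM for Spi1. The COL means moved less, to 469 from 484, 241 from 260 and 164 from 175 CPM. The part of this in the calls by marker genes was not tested. Il34 was under the count filter in the microglia taken from clusters, at 2 to 17 UMIs. In oligodendrocytes 21.7% of all genes passed, 9.55% upwards and 12.1% downwards, and 6 of the 9 members did, all upwards: Csf1, Csf2rb, Runx1, Spi1, Irf8 and Csf3r. In NS oligodendrocytes Csf2rb stood at 0.0889 to 0.136 CPM, Spi1 at 0.267 to 0.543 CPM and Irf8 at 0.136 to 1.16 CPM. They met the count filter through the COL libraries, so only a rise could have been called for them. Runx1 in oligodendrocytes went from 1.49 and 1.78 to 15.7 and 21.4 CPM (log2 difference 3.52, SE 0.31, adjusted p = 0.00150). Csf2rb there rested on 2 UMIs in NS against 49 in COL, a ratio of pooled levels of 23.3 with a counting interval from 6.10 to 197. COL replicate 2 held 37 of the 49, and without it Csf2rb was under the count filter. NS oligodendrocytes lay in clusters 0 and 7 and COL oligodendrocytes in clusters 4 and 16.

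In OPC 18.9% of all genes passed, 8.4% upwards and 10.5% downwards, and of the 8 members tested Csf1, Runx1, Csf3r and Irf8 were higher and Csf2ra lower. In NS OPC Csf3r stood at 1.90 to 2.01 CPM and Irf8 at 0.475 to 0.504 CPM. Both met the count filter through COL and could be called only upwards. Summed markers of dividing cells stood at 46.1 and 54.9 CPM in NS OPC and at 351 and 297 CPM in COL OPC, and their part in these results was not tested. With OPC chosen by marker genes 7 of the 9 were higher (Spi1, Csf1r and Csf2rb in addition) and 0 lower, beside 7.65% and 9.17% of all genes in that fit, and the median log2 difference was 3.30 against 1.61. Irf8 had 2 UMIs in NS OPC and 26 in COL OPC, a ratio of 12.4 with a counting interval from 3.09 to 107. Its fitted log2 difference, 3.49 (SE 0.73, adjusted p = 0.00513), missed the threshold without NS replicate 1 (adjusted p = 0.0852) or NS replicate 2 (0.0616), the gene was under the count filter without COL replicate 2, and DESeq2 gave it no adjusted p. In astrocytes 15.9% of all genes passed, 7.58% upwards and 8.32% downwards, as did 3 of the 6 members tested, Csf1, Runx1 and Csf3r. In NS astrocytes Runx1 stood at 1.35 to 1.89 CPM and Csf3r at 1.08 to 2.72 CPM. Both met the count filter through COL and could be called only upwards. Csf3r in astrocytes had 13 and 4 UMIs in NS and 10 and 14 in COL, and its call (adjusted p = 0.0390) was lost with DESeq2 (adjusted p = 0.241) and with any library left out. In vascular cells 2.74% of all genes passed, 0.751% upwards and 1.99% downwards, and of the members only Runx1 and Il34 met the count filter. Runx1 did so through the COL libraries, having 0 and 1 UMIs in NS, and could be called only upwards. In neurons 0 of 23746 genes passed in edgeR (0%), the members among them, although 6687 genes, including 6 of the 9 members, had an unadjusted p under 0.05. DESeq2 called 2491 genes (10.9%) and 5 members in neurons. Without COL replicate 2 edgeR called 5285 genes (21.2%), and without COL replicate 1 it called 168 (0.681%), each time with 4 members, Spi1, Runx1, Csf3r and Irf8. The neuronal log2 differences ran from -0.20 for Il34 to 2.63 for Irf8, all with adjusted p of at least 0.111.

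**Figure D3:**
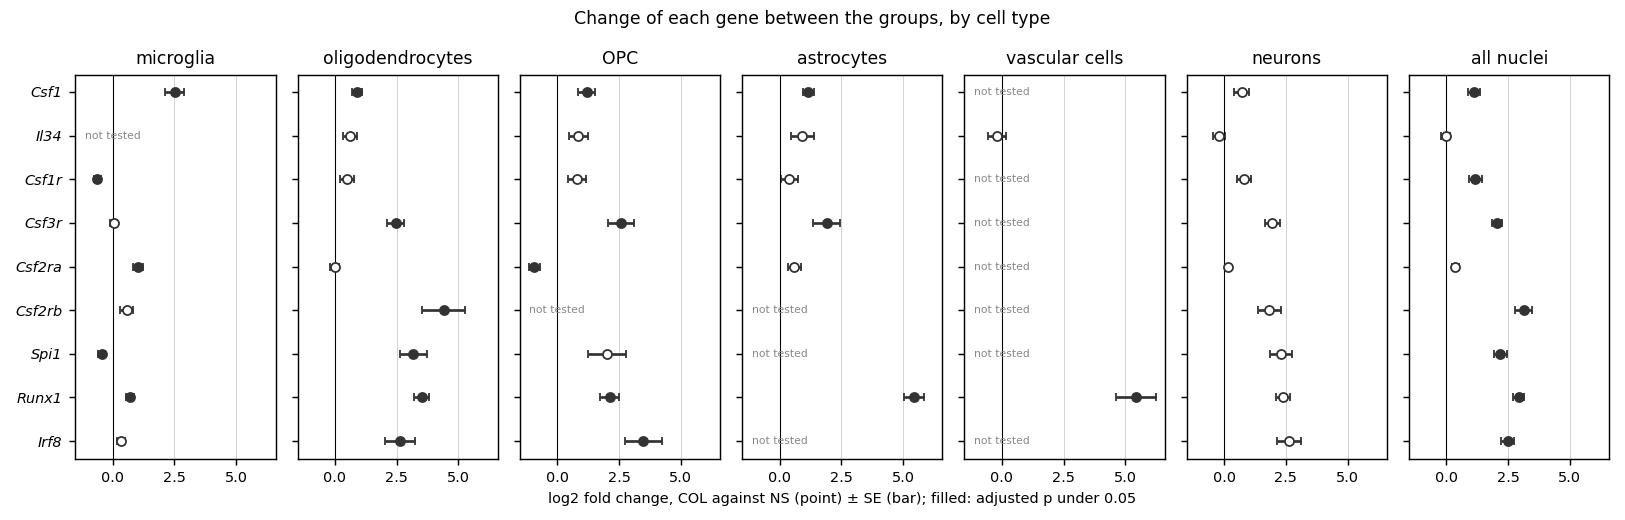
Log2 difference of each gene between COL and NS (points) with its SE (bars) by cell type and in all nuclei, filled where the edgeR adjusted p was under 0.05. Csf1 lies at 2.52 in microglia with Csf1r and Spi1 below 0, and Runx1 lies above 5 in astrocytes and vascular cells.

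Macrophage markers were also higher in COL in the non-myeloid types other than vascular cells. Summed macrophage markers stood at 2.31 and 3.82 CPM in NS oligodendrocytes and 19.4 and 30.5 CPM in COL oligodendrocytes. In OPC they were 2.37 and 3.53 against 18.5 and 26.2 CPM, in astrocytes 7.96 and 13.5 against 26.4 and 40.3 CPM, and in neurons 6.78 and 7.79 against 10.5 and 21.7 CPM. In vascular cells they were 28.2 and 13.05 against 23.3 and 26.2 CPM, overlapping. Summed microglia markers in the same nuclei were at 41.4, 53.2, 32.5 and 55.3 CPM in oligodendrocytes, 62.7, 85.1, 68.8 and 65.0 CPM in OPC and 56.4, 79.5, 37.3 and 89.2 CPM in astrocytes, with overlapping groups in each. They were at 51.4, 68.2, 23.2 and 46.0 CPM in neurons, where COL was the lower, and at 84.7, 45.7, 28.0 and 93.1 CPM in vascular cells, overlapping. All 7 macrophage markers had UMIs in each of these types, except that Cd163 was at 0 in vascular cells. Free RNA of myeloid cells and myeloid nuclei sharing a droplet were not removed, and their part in the result was not tested.

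The ratio of a gene to those markers differed between genes and types. In oligodendrocytes Runx1 had 34.2 and 31.2 UMIs per 1000 UMIs of the microglia and macrophage markers in NS and 303 and 249 in COL, beside 278 and 328 in COL macrophages and 703 and 726 in COL microglia. In astrocytes the Runx1 ratio was 29.3 and 14.5 in NS and 1537 and 382 in COL. In COL vascular cells it was 3182 and 2415, on 11 and 41 marker UMIs. Runx1 in COL vascular cells, and in astrocytes of COL replicate 1, stood higher against the markers than in COL microglia or macrophages. In astrocytes of COL replicate 2 it stood at 382, below COL microglia and above COL macrophages. The source of these UMIs was not tested. COL T and NK cells had a Runx1 ratio of 1688 and 1592. Their markers were at 9.32 and 43.6 CPM in COL vascular cells and at 56.5 and 26.1 CPM in NS vascular cells, overlapping. In astrocytes the same markers were higher in both COL libraries, at 13.2 and 10.8 CPM in NS against 20.96 and 31.1 CPM. They stood at 7.46 and 4.53 against 12.2 and 17.05 in oligodendrocytes, and at 2.85 and 3.02 against 10.2 and 14.4 CPM in OPC. Neurons held 44.7 and 29.6 against 45.2 and 36.9 CPM of them, overlapping. The part of T and NK cells in these Runx1 values was not tested. For Spi1 the ratio in oligodendrocytes was 12.4 and 4.68 in NS and 50.8 and 49.4 in COL, beside 64.3 and 76.3 in COL macrophages and 78.4 and 92.3 in COL microglia.

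**Figure D4:**
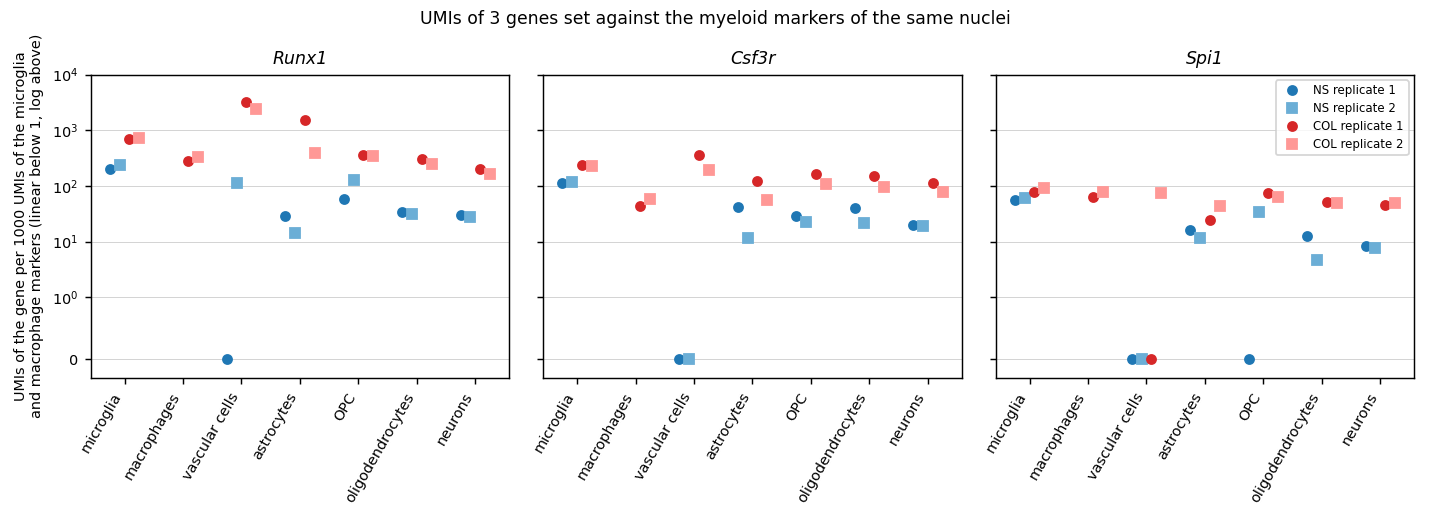
UMIs of Runx1, Csf3r and Spi1 per 1000 UMIs of the microglia and macrophage markers (linear below 1, logarithmic above) by cell type, each point a library. In COL (red), Runx1 in vascular cells stands at 3182 and 2415, above its 703 and 726 in microglia, and Spi1 in oligodendrocytes at 50.8 and 49.4, against 12.4 and 4.68 in NS (blue).

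Whether the change in microglia differed from that in another type was tested in a fit over both types with the library as a block. Against neurons, 9.58% of all genes differed and 7 of the 9 members did. Against oligodendrocytes it was 8.16% of all genes and 8 members, against OPC 9.12% and 7 members, and against astrocytes 6.8% and 5 members. In these fits a gene could meet the count filter through a single type. Spi1, Irf8 and Csf2rb in astrocytes, Csf2rb in OPC and Il34 in microglia were under the filter in the fit of that type alone. Spi1 had 9 UMIs in NS astrocytes and 13 in COL astrocytes. The Csf1 change in microglia exceeded that in oligodendrocytes by 1.66 on the log2 scale (SE 0.29, adjusted p = 0.000155) and that in neurons by 1.82 (SE 0.32, adjusted p = 7.16e-07). The excess over OPC (1.27, adjusted p = 0.0146) was not called by DESeq2 (adjusted p = 0.239), nor when NS replicate 1 was left out (0.352) or nuclei were chosen by marker genes (0.124). The excess over astrocytes (1.35, adjusted p = 0.0109) was not called by DESeq2 (0.288), nor when NS replicate 1 (0.106) or COL replicate 2 (0.179) was left out. The Csf2ra change in microglia exceeded that in OPC by 1.89 (SE 0.27, adjusted p = 6.73e-07), in which Csf2ra fell. For Csf1r, Spi1, Csf3r and Runx1 the change in microglia was below that in each of the other 4 types. Against neurons and oligodendrocytes these differences kept their calls under every alternative run. Against OPC, those of Spi1 (-1.54, adjusted p = 0.128) and Runx1 (-0.99, adjusted p = 0.0717) were lost without NS replicate 1. Against astrocytes, that of Csf1r (-1.01) was lost without NS replicate 1 (adjusted p = 0.139) and without COL replicate 2 (0.577), that of Spi1 (-2.32) without the same libraries (0.0741 and 0.780), and that of Csf3r (-1.87) without NS replicate 2 (0.0800) or COL replicate 2 (0.0751). The Csf2ra excess over neurons, 0.93, was lost without NS replicate 1 (0.71, adjusted p = 0.175).

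Other genes of the same pathways were taken from lists drawn up with results of these data known. Of 13 further ligands and receptors, 4 had enough UMIs in microglia and 0 passed in edgeR, with 0 at an unadjusted p under 0.05 and 0 called by DESeq2. These were Kitl, the ligand of KIT (log2 difference 0.32, adjusted p = 0.342), Flt3, a receptor of early blood cells (0.47, adjusted p = 0.517), Csf2rb2 (-0.27, adjusted p = 0.688) and Ptprz1, a phosphatase that binds interleukin 34 (0.02, adjusted p = 0.963). In all nuclei 1 of 9 tested passed, beside 9.45% of all genes: Sdc1, a proteoglycan that also binds interleukin 34. That call was lost without either NS library. Of 20 genes of signal transduction below these receptors, 2 passed upwards in microglia and 1 downwards, with a median log2 difference of 0.21, beside the 28.7% of all microglial genes that passed. With microglia chosen by marker genes 10 passed upwards and 0 downwards, with a median of 0.57, beside 10.7% and 9.87% of all genes in that fit. In the microglia taken from clusters DESeq2 called Stat3 alone, beside 13.6% of all genes. Stat3, which relays CSF3R signals, rose from 137 and 136 to 236 and 237 CPM (0.84, adjusted p = 0.00204). Dok3, an adaptor of myeloid cells, rose by 0.78 (adjusted p = 0.0495), Pik3cg, a kinase of leukocytes, fell by 0.75 (adjusted p = 0.0148), and the adaptor Grb2 was at 0.41 (adjusted p = 0.0547). The calls of Dok3 and Pik3cg were both lost with DESeq2, without NS replicate 1 and without dividing microglia, that of Dok3 also with plain library sizes and that of Pik3cg by marker genes. In all nuclei 11 of the 20 passed, all upwards, beside 9.45% of all genes.

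Of 25 further transcription factors of myeloid cells, 20 could be tested in microglia, and 2 passed upwards and 6 downwards, with a median of -0.21 beside -0.00 over all genes, of which 14.3% passed upwards and 14.4% downwards. With microglia chosen by marker genes 19 could be tested, and 5 passed upwards (Fli1, Ikzf1, Zeb2, Tfec and Irf2) and 0 downwards, with a median of 0.35, beside the same 10.7% and 9.87%. Zeb2, a repressor needed by macrophages and microglia, rose from 1543 and 1778 to 2677 and 2776 CPM (0.76, adjusted p = 0.00229). Tfec, a factor of macrophages, had 0 and 1 UMIs in NS and 63 and 108 in COL, a ratio of pooled levels of 54.4 with a counting interval from 9.63 to 2161. Tfec met the count filter through the COL libraries and could be called only upwards. Mef2c, a factor of resting microglia, fell from 1769 and 1731 to 983 and 897 CPM (-0.85, adjusted p = 0.000874), and its relative Mef2a fell by 0.77 (adjusted p = 0.00164). The calls of Mef2c and Mef2a were lost by marker genes and without NS replicate 2, and that of Zeb2 without either NS library. Ets1, Maf and Sall1 were among the others that fell. In all nuclei 9 of the 24 tested passed, all upwards, beside 9.45% of all genes.

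The genes whose levels ran most alike with each member over 24 points (6 cell types in 4 libraries, which share libraries and depth) were found among 19115 genes. Pearson's r on the log scale was 0.92 for Csf1 with Neat1, a nuclear non-coding RNA, and 0.97 for Il34 with Aox3. It was 0.97 for Csf1r with Pld4, 0.99 for Csf3r with Arhgap45, 0.94 for Csf2ra with Galc and 0.98 for Csf2rb with Fes. For the regulators it was 0.99 for Spi1 with Mir142hg, 0.97 for Runx1 with Ctsc and 0.99 for Irf8 with Csf3r, the only pair of members among these first matches.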

How the data were processed

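The 4 libraries were 10x Chromium 3′ snRNA-seq of nuclei. The authors deposited, per library, a matrix of UMI counts per gene and barcode, made with Cell Ranger 1.2.0 against mm10 per the labels. Strand use is not given in the sources used here. No count column was left without a sample.

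As in the study, a nucleus was kept if over 50 genes were detected and mitochondrial UMIs stayed under 5%. Counts were log-normalised and clustered in Seurat 5.3.0 (R 4.3.3; 5000 variable genes without the members and pathway genes, 15 principal components, resolution 0.8) without integration. Clusters were named by marker lists, and clusters in which over 50% of nuclei were called doublets were set aside as mixed. Doublets were otherwise kept, and free RNA was not removed.

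UMI counts were summed per library and type with at least 20 nuclei in every library and compared by edgeR 4.0.16 (TMM, filterByExpr, quasi-likelihood test). The SE of a log2 difference is its absolute size divided by the square root of the test's F statistic. It is not the spread between pools. A gene low in NS could meet the count filter through the COL libraries alone, and then only a rise could be called. P-values were adjusted by Benjamini-Hochberg over all genes of a fit, with a threshold of 0.05. The change in microglia against the change in another type was a test added after the changes had been seen. DESeq2 1.42.0, plain library sizes, no filter, a marker gate per nucleus, other resolutions, doublet removal, at least 500 genes, a replicate block and leaving out each library were alternatives; leaving out dividing microglia or mixed clusters was chosen after seeing the data. The fits were also run on counts simulated from their own estimated spread, without free RNA or shifts in cell make-up. That run cannot show how the fits behave where these are present. Intervals and the floor of 3 UMIs cover counting error only. For thinning, 169 nuclei held under 1000 UMIs. The 9 members are named, and of each pathway list the 4 genes with the smallest p in microglia. Other genes named from the lists are ones that passed. A gene that passed in the list of transcription factors is not reported here by name. The members and lists were chosen with earlier results of these data known. Gene positions are from GENCODE M21 (GRCm38).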

Additional observations from a re-analysis of the deposited data

Results flagged for a closer look

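For 27 pairs of a gene and a cell type, the difference between COL and NS in microglia was not the same as that in the other type, by the test of the difference itself (edgeR, adjusted p under 0.05). Values are the log2 change in microglia minus the log2 change in the other type. Csf1 was higher by this measure against neurons (1.82), oligodendrocytes (1.66), OPC (1.27) and astrocytes (1.35). Csf2ra was higher against neurons (0.93), oligodendrocytes (1.11) and OPC (1.89).

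The other receptors and the regulators were lower by this measure where they passed. Csf1r gave -1.37 against neurons, -1.03 against oligodendrocytes, -1.49 against OPC and -1.01 against astrocytes. Csf3r gave -1.87, -2.37, -2.63 and -1.87 in the same order, and Csf2rb gave -3.69 against oligodendrocytes. Spi1 gave -2.69 against neurons, -3.56 against oligodendrocytes, -2.55 against OPC and -2.32 against astrocytes, where it was under the count filter in the fit of astrocytes alone. Runx1 gave -1.63, -2.76, -1.53 and -4.68 in that order. Irf8 gave -2.25 against neurons, -2.19 against oligodendrocytes and -3.23 against OPC. In those other types the levels were low in NS, and the summed macrophage markers of the same nuclei were higher in COL in each of them. Their part in these differences was not tested. Of the 27 calls, 7 were lost with DESeq2 (Csf1, Irf8 and Csf2ra among them), 3 by marker gate (Csf1 against OPC, Spi1 and Csf1r against astrocytes), 7 without NS replicate 1 and 4 without COL replicate 2.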

How the results depend on the processing

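The labels give replicate numbers but nothing that pairs libraries, and 2 pairs are too few to tell. Deviations from the group means correlated between same-numbered libraries at 0.122 over all nuclei, 0.163 in astrocytes, 0.154 in oligodendrocytes, 0.105 in OPC, 0.0857 in microglia, 0.0461 in neurons and -0.0201 in vascular cells. With a replicate block, 4 members passed in neurons against 0, beside 3.42% of all genes against 0%. In all nuclei 3 of the further ligands and receptors passed against 1, beside 21.8% of all genes against 9.45%. In microglia 5 signalling genes passed against 3, beside 32.3% of all genes against 28.7%. The members called in neurons were 5 with DESeq2 and 3 with no filter on low counts, beside 10.9% and 0.524% of all genes. In OPC DESeq2 called 2 members against 5, beside 6.71% of all genes against 18.9%. In vascular cells it called 0 against 1, beside 2.33% of all genes against 2.74%. It gave Irf8 in OPC and Runx1 in vascular cells no adjusted p. Resolution 0.4 gave 5 in astrocytes against 3, beside 24.5% of all astrocyte genes in that fit against 15.9%. The further ligands and receptors called in all nuclei were 3 with DESeq2, 5 with no filter, 2 with doublets removed and 2 without mixed clusters. The shares of all genes were 18.6%, 17.2%, 8.32% and 7.74% in that order. In microglia 1 passed by marker gate, beside 20.5% of all genes. The signalling genes called in microglia were 1 with DESeq2, 5 with no filter and 10 by marker gate (all upwards). The shares of all genes were 13.6%, 15.3% and 20.5% in that order. The transcription factors called in microglia were 5 by marker gate (all upwards) against 8, beside 20.5% of all genes against 28.7%. In all nuclei they were 15 with no filter against 9, beside 17.2% of all genes against 9.45%.

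With each library left out in turn, members called ran from 2 to 5 in microglia, 3 to 5 in OPC, 0 to 4 in neurons and 0 to 1 in vascular cells, further ligands and receptors in all nuclei from 0 to 3, and in microglia signalling genes from 1 to 7 and transcription factors from 3 to 8. The lone library of an arm was then assumed to vary like the other group. Genes called over all nuclei were 2416, against 1213 with plain library sizes, 4565 with DESeq2, 6893 with no filter, 5563 with the replicate block and 1603 to 7012 with a library left out (highest without COL replicate 2), and in neurons 0 against 2491 with DESeq2, 202 with no filter, 811 with the block and 0 to 5285 with a library left out (5285 without COL replicate 2, 168 without COL replicate 1). In oligodendrocytes they were 3719, against 1730 without NS replicate 2 and 7126 without COL replicate 2. In vascular cells they were 124 against 23 with DESeq2 and 427 by marker gate, in microglia 3484 against 1719 with DESeq2, in OPC 2496 against 925 and in astrocytes 2313 against 1089. With a library left out these ran from 0 to 39 in vascular cells, 1960 to 3713 in microglia, 1364 to 3440 in OPC and 1240 to 2505 in astrocytes.

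Signs turned only for differences that missed the threshold, Spi1 in microglia excepted (0.17 by marker gate). With a library left out, Il34 ran from -0.28 to 0.11 in all nuclei (0.044 without NS replicate 1), from -0.63 to 0.068 in neurons and from -0.52 to 0.16 in vascular cells (0.067 without NS replicate 1), Csf2ra in oligodendrocytes from -0.045 to 0.053 (0.050 without NS replicate 2), Csf1r in astrocytes from -0.11 to 0.69, and in microglia Csf3r from -0.046 to 0.14, Flt3 from -0.0842 to 1.35, Ptprz1 from -0.26 to 0.26 (-0.16 without NS replicate 2) and Csf2rb2 from -0.71 to 0.44. The Il34 change in microglia minus that in oligodendrocytes ran from -0.61 to 0.42 (0.13 without COL replicate 1). By marker gate, Il34 in vascular cells became 0.69, Csf2ra in oligodendrocytes 0.10, and in microglia Csf2rb2 0.35 and Ptprz1 -0.71 (adjusted p = 0.0122); the Il34 change in microglia minus that in neurons became -0.74. With plain library sizes Csf2ra became -0.0052 in neurons, and in microglia Csf3r -0.014 and Ptprz1 -0.032. Il34 in vascular cells became 0.015 with no filter. Csf2ra in oligodendrocytes became 0.030 with DESeq2, 0.045 with no filter, 0.014 with doublets removed, 0.039 at resolution 0.4, 0.013 at resolution 1.2 and 0.020 with members among the variable genes. In microglia Ptprz1 became -0.0844 at resolution 0.4 and -0.089 with members among the variable genes, and Csf2rb2 0.032 without dividing nuclei. The COL minus NS share of nuclei became -0.0788 percentage points for OPC and 1.27 for neurons by marker gate. The cause of these shifts was not tested. At resolution 0.4 vascular cells and macrophages formed no cluster of their own and gave no value. Of 108 mean levels by type and group, 45 moved by more than the spread between libraries under the marker gate. Of the single-gene differences recomputed, 753 kept direction and side of the threshold, 54 lost it and 39 gained it.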

Other observations

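Within COL microglia, the dividing nuclei of cluster 23 (75 and 128 nuclei, led by Top2a and Mki67) and the other microglia (298 and 423 nuclei) carried the members at different levels, given here as values without a test, since clusters are not replicates. Spi1 stood at 110.2 and 148 CPM in dividing nuclei of COL replicates 1 and 2 and at 193 and 202 CPM in the others. Irf8 stood at 209 and 221 CPM against 269 and 296 CPM, and Csf2rb, the signalling chain of the GM-CSF receptor, at 41.8 and 43.9 CPM against 56.8 and 70.3 CPM. In these 3 genes, and in Csf1r, Csf2ra and Csf3r, each dividing pool lay below both others. These levels are relative to all UMIs and not per nucleus. The median nucleus held 6209 UMIs in cluster 23 against 3935 in cluster 10, which held most of the other COL microglia. Csf1 did not separate, at 70.3 and 126 CPM in dividing nuclei against 57.7 and 127 CPM, nor did Runx1, at 1750.3 and 1426 CPM against 1397 and 1449 CPM.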
